A study of Homo sapiens with 12 samples.

Results

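Pulmonary surfactant is a film of phospholipid and protein that lowers surface tension in the air spaces. Alveolar type 2 cells make it, package it in lamellar bodies (lysosome-related organelles filled with lipid) and release it by exocytosis. The genes followed here encode the hydrophobic surfactant proteins (SFTPB and SFTPC), the collectins (SFTPA1, SFTPA2 and SFTPD), the protease NAPSA, the lamellar body proteins ABCA3 and LAMP3, the phosphate transporter SLC34A2 and the lipid enzyme LPCAT1. They were taken by gene symbol from the 23786 probe sets of an array series, each of which stands for 1 NCBI gene number. Of the 10 genes listed, 9 had a probe set, and SFTPA2, for which none was at hand, was not analysed here. Bronchiolar and airway secretory cells are also known to express some of these genes, SFTPB and the collectins among them, so the list does not by itself define a cell type.

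The 12 arrays held RNA from RUES2, a human embryonic stem cell line, led by way of endoderm and foregut to lung progenitors and then kept in a medium of low Wnt activity that favours airway cells, per the labels' protocols. There were 2 arrays of undifferentiated cells (day 0), 2 of progenitors with high CD47 (day 15 CD47hi), 2 of day 22 cells, and 3 each of the SCGB3A2- and SCGB3A2+ fractions of day 36. SCGB3A2 is a secretoglobin of airway epithelium, and how the sort recognised it is not given in the sources used here. All groups share 1 cell line, and no genotype or drug was contrasted. No label gives replicates separate cultures, and the p-values therefore cover the spread among arrays, which may be technical. Day 0 and day 22 carry no sort in their titles, so a sort and the passage of time cannot be told apart when day 15 or day 36 is set against another day.

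Values are RMA log2 values, on which 1 unit is a 2-fold change, and levels of different probe sets cannot be set against each other. Differences are log2 differences of group means ± the standard error (SE) of limma, a linear model fitted to all probe sets. Calls are at a Benjamini-Hochberg adjusted p under 0.05 over all 23786 probe sets of a comparison. Levels under 2.96, the 40th percentile of all values, are called dim. In mixed RNA, fewer cells of a type and less RNA per cell cannot be told apart. The sort marker SCGB3A2 stood at 8.89 to 9.39 on the SCGB3A2+ arrays and at 2.06 to 2.70 on the SCGB3A2- arrays, and at 7.05 and 7.24 at day 0. The day 0 arrays, of undifferentiated cells, were thus well above the SCGB3A2- arrays for this marker, while the pluripotency markers were at their highest there (mean level of 11 measured genes 7.36 to 7.51, against 2.93 to 3.57 elsewhere).

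The stretches upstream of the genes are shown first. Whether they bear on the changes across the groups described further on was not tested. From the RefSeq promoter table (GRCh38.p14), 12 start sites of 8 of the 10 genes were taken. The 250 bases before each of these start sites were searched on both strands. The motifs, chosen with these sequences in view, were GCNCTNNAG (a consensus described for NKX2-1 at the SFTPB promoter), CAAGTG (an NK2 homeodomain core, which also holds the CANNTG pattern of E-boxes) and TGTTT (a forkhead core). Capitals mark the matches to any of them, and sequences run 5′ to 3′ on the gene's strand.
SFTPB, second start site, chr2:85668200-85668449, minus strand: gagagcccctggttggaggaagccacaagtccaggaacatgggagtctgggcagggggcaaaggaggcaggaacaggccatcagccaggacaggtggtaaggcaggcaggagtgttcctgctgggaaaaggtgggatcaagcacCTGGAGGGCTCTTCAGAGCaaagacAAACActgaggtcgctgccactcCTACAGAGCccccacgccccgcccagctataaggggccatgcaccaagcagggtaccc
SFTPA1, chr10:79610689-79610938, plus strand: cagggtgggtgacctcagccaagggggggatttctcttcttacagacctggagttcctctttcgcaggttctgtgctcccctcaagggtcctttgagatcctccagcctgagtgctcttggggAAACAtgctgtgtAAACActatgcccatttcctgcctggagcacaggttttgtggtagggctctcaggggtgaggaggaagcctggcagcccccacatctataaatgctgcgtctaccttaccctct
SFTPA2, first start site, chr10:79560408-79560657, minus strand: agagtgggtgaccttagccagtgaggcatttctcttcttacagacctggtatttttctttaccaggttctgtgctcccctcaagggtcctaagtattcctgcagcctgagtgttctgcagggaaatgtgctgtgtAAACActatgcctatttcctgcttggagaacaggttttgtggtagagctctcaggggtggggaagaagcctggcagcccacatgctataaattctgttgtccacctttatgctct
SFTPD, chr10:79949106-79949355, minus strand: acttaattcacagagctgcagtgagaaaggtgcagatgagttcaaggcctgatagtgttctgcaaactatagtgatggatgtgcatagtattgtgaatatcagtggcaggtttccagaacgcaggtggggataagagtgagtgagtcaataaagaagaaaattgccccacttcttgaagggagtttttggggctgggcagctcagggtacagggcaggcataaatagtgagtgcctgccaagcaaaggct
LPCAT1, chr5:1523961-1524210, minus strand: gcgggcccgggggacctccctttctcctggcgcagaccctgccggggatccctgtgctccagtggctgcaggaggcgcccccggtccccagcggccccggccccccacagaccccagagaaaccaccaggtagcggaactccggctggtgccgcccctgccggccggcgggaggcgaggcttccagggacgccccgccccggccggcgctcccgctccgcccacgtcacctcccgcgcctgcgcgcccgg

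The SFTPB stretch shown, at the second listed start site, held 4 matches to GCNCTNNAG, and the first start site held 1. Of these, 3 overlapped one another between bases 106 and 88 before the start site, and the fourth lay at bases 58 to 50. A forkhead core on the opposite strand lay next to them, at bases 81 to 77. Over all 35116 promoters of this length, 14.3% held GCNCTNNAG, 9.5% CAAGTG and 40.4% TGTTT, so a single match is common. The SFTPA1 stretch held the forkhead core at 2 places and the SFTPA2 stretch at 1, and these stretches were 83.9% identical in a global alignment (214 of 255 columns). The forkhead core was also found at 2 places at the first start site of SFTPB and at 1 each at the second start sites of NAPSA and SLC34A2. CAAGTG was found at 1 of the 12 start sites, the second of SLC34A2, at bases 66 to 61. No motif was found in this window for SFTPD, ABCA3 and LPCAT1. The LPCAT1 stretch differed in composition from the others shown, with 78.8% G and C and 28 CpG, against medians of 58% and 11 over all promoters. ABCA3 (79.2%, 38 CpG) and the first start site of SLC34A2 (69.6%, 33 CpG) were of the same kind. The remaining start sites searched had 46.8% to 61.2% G and C and 0 to 10 CpG. A match describes letters and not a bound site.

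All 9 measured genes differed among the 5 groups in limma's moderated F-test (51.3% of all probe sets did), and 8 of them had their highest mean in SCGB3A2+ cells. LPCAT1 was the exception, with means of 9.30 at day 22 and 9.26 in SCGB3A2+ cells. In broad terms, 8 genes rose between day 15 and day 22, and by day 36 every one was higher in the SCGB3A2+ sort than in the SCGB3A2- sort. The genes differed in which later groups were raised and in how the SCGB3A2- sort compared with the early groups.

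**Figure D1:**
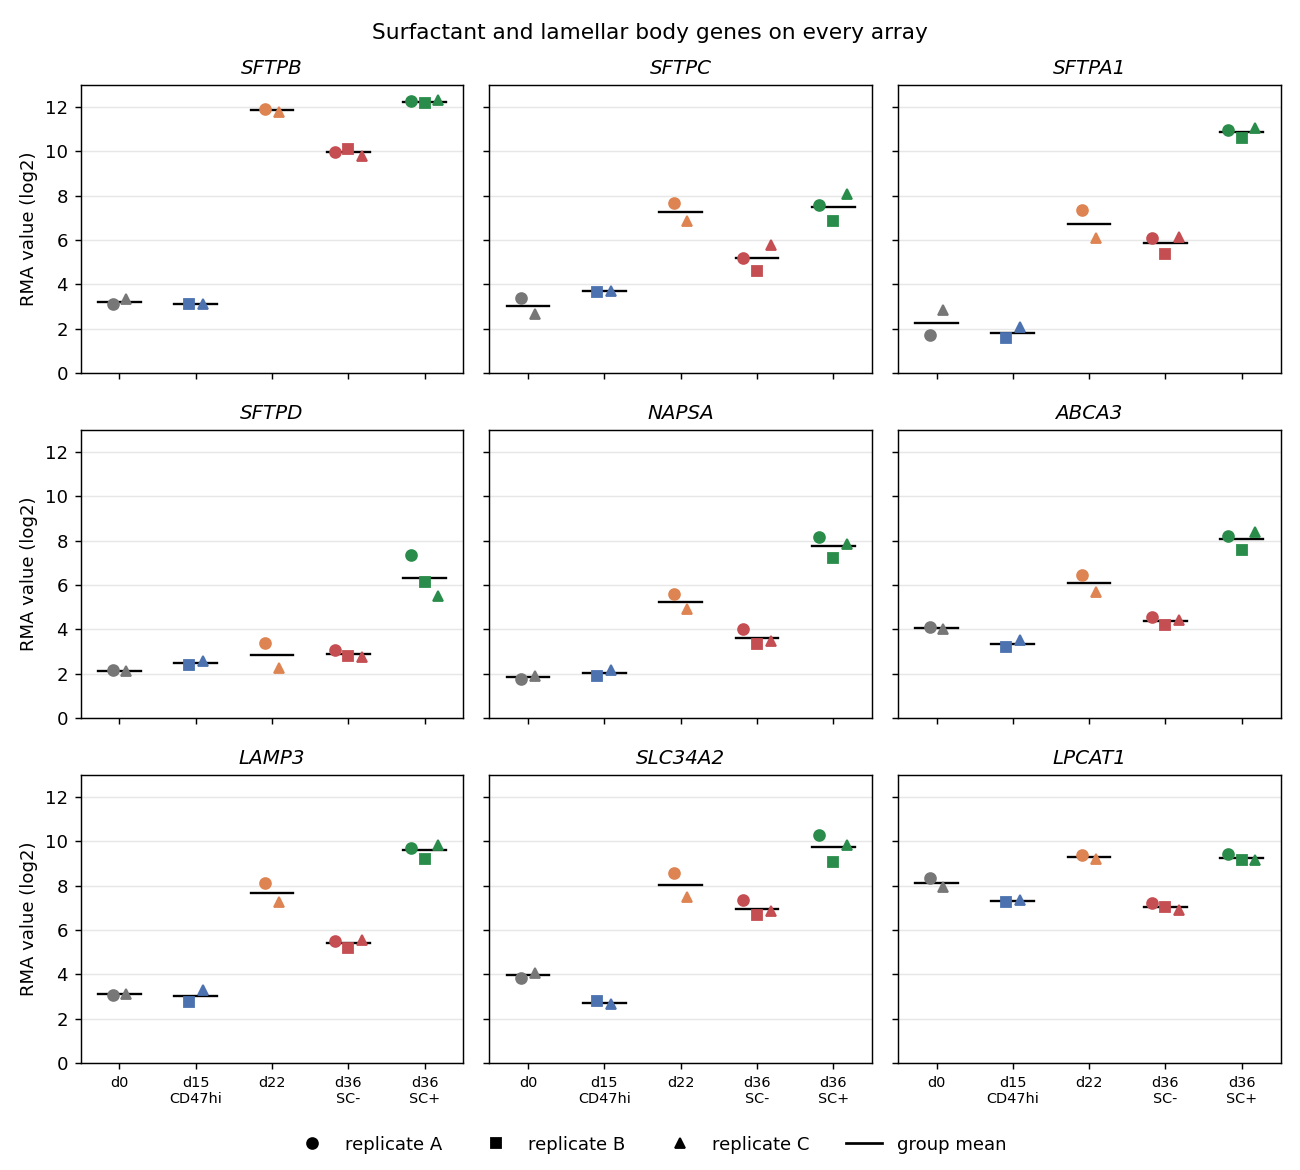
RMA log2 values (vertical axis) of the 9 genes on all 12 arrays, by group on the horizontal axis (d, day; SC, SCGB3A2), with a point for each array, its shape giving the replicate letter, and a line for each group mean. SFTPB is near 12 at day 22 and in the SCGB3A2+ sort and near 10 in the SCGB3A2- sort, whereas SFTPD is above 5 on the SCGB3A2+ arrays alone.

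SFTPB encodes a small hydrophobic protein that is needed for the surfactant film and for lamellar bodies to form. Its level was 3.09 and 3.36 on the day 0 arrays, 3.10 and 3.12 at day 15, and 11.93 and 11.77 at day 22. At day 36 it was 9.99, 10.12 and 9.79 on the SCGB3A2- arrays and 12.26, 12.20 and 12.30 on the SCGB3A2+ arrays. Day 0 and day 15 overlapped, and both lay far below every later array. The rise from day 15 to day 22 was 8.74 ± 0.15 (adjusted p = 4.88e-11), from a level close to the dim limit. SFTPB gave the highest signal of all probe sets on the 3 SCGB3A2+ arrays and the next to highest on both day 22 arrays. Such a place does not rank its transcript against those of other genes. Whether the SFTPB signal was saturated on these arrays, which bears on both of its comparisons of SCGB3A2+ cells that follow, was not tested. In SCGB3A2- cells SFTPB was 1.88 ± 0.14 lower than at day 22 (adjusted p = 1.82e-05) and still 6.85 ± 0.14 higher than at day 15 (adjusted p = 9.12e-11, in a comparison in which 8.43% of probe sets were higher). The SCGB3A2+ level was 4.88-fold that of SCGB3A2- cells (2.29 ± 0.12, adjusted p = 5.23e-07). Its neighbours in the order, SCGB3A2+ and day 22, did not differ past the threshold (0.41 ± 0.14, adjusted p = 0.0765), but passed it when the variances were fitted robustly with an intensity trend (0.0247), and when dim probe sets were dropped (0.0499).

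SFTPC, whose product is a hydrophobic protein taken as the most specific marker of alveolar type 2 cells, had means that did not differ past the threshold between day 22 and SCGB3A2+ cells. Its values were 3.39 and 2.67 at day 0, 3.66 and 3.71 at day 15, and 7.66 and 6.85 at day 22. They were 5.20, 4.60 and 5.77 on the SCGB3A2- arrays and 7.58, 6.87 and 8.09 on the SCGB3A2+ arrays. The day 22 and SCGB3A2+ arrays overlapped, and the difference of their means was 0.25 ± 0.40 (adjusted p = 0.759). SCGB3A2- cells lay between the early and the late groups, 1.50 ± 0.40 above day 15 (adjusted p = 0.0219) and 2.07 (SE 0.40) below day 22 (adjusted p = 0.00813). The latter call ended without day 22 A (adjusted p = 0.0935). Between the sorts the difference was 2.32 ± 0.36 (adjusted p = 6.58e-04), and the letter-matched differences were 2.38, 2.27 and 2.32 for A, B and C.

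The collectins bind carbohydrates on microbes and take part in the organisation and turnover of surfactant. SFTPA1 was dim at day 0 (1.71 and 2.83) and day 15 (1.60 and 2.06), and stood at 7.37 and 6.09 at day 22. It was 6.11, 5.37 and 6.12 on the SCGB3A2- arrays and 10.95, 10.59 and 11.08 on the SCGB3A2+ arrays. SFTPA1 was thus 4.90 ± 0.44 higher at day 22 than at day 15 (adjusted p = 1.52e-05). In SCGB3A2+ cells it was a further 4.14 ± 0.40 higher than at day 22 (adjusted p = 1.51e-04). In SCGB3A2- cells it overlapped day 22 (-0.86 ± 0.40, adjusted p = 0.249) and lay 4.04 ± 0.40 above day 15. The gap between the sorts, 5.002 ± 0.36 or 32.0-fold (adjusted p = 3.18e-06), was the largest of the 9 genes. SFTPA1 and SFTPA2 are near-identical neighbours on chromosome 10, and which share of this signal comes from SFTPA2 transcripts was not tested.

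SFTPD, the other collectin, was the gene of the set with a raised level in SCGB3A2+ cells alone. It stood at 2.16 and 2.10 at day 0, 2.39 and 2.56 at day 15, 3.40 and 2.26 at day 22, and 3.07, 2.80 and 2.76 in the SCGB3A2- sort. On the SCGB3A2+ arrays it was 7.38, 6.12 and 5.52. None of the neighbouring pairs among the other 4 groups differed past the threshold, with differences of 0.05 to 0.35 and adjusted p of 0.654 to 0.974. SCGB3A2+ cells were 3.51 ± 0.44 above day 22 (adjusted p = 5.83e-04) and 3.46 ± 0.40 above SCGB3A2- cells (adjusted p = 8.64e-05). Its SD among the SCGB3A2+ arrays, 0.95, was the widest of any gene there, and A was the highest array.

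NAPSA encodes napsin A, an aspartic protease that takes part in the maturation of the SFTPB and SFTPC proproteins. Its values were 1.76 and 1.90 at day 0, 1.88 and 2.15 at day 15, 5.57 and 4.90 at day 22, 4.01, 3.32 and 3.46 in the SCGB3A2- sort and 8.16, 7.23 and 7.84 in the SCGB3A2+ sort. No group from day 22 on overlapped another. It rose by 3.23 ± 0.32 to day 22 (adjusted p = 3.01e-05), and SCGB3A2+ cells were 17.7-fold above SCGB3A2- cells (4.15 ± 0.26, adjusted p = 1.35e-06). The fall from day 22 to SCGB3A2- cells (-1.64 ± 0.29, adjusted p = 0.00479) was no longer called without day 22 A (adjusted p = 0.063).

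ABCA3 pumps phospholipid into lamellar bodies. It was 4.11 and 4.03 at day 0, 3.21 and 3.50 at day 15, 6.46 and 5.70 at day 22, 4.56, 4.20 and 4.40 in SCGB3A2- cells and 8.22, 7.57 and 8.40 in SCGB3A2+ cells. The SCGB3A2- arrays were all above day 0, as were 25.9% of all probe sets, by a mean of 0.32 ± 0.26 that did not pass (adjusted p = 0.391). ABCA3 was 1.98 ± 0.26 higher in SCGB3A2+ cells than at day 22 (adjusted p = 8.07e-04) and 1.69 (SE 0.26) lower in SCGB3A2- cells than at day 22 (adjusted p = 0.00212). The sorts differed by 3.67 ± 0.23, or 12.8-fold (adjusted p = 1.62e-06).

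LAMP3, a lysosome-associated membrane protein of lamellar bodies, is also a marker of mature dendritic cells. Its values were 3.07 and 3.13 at day 0, 2.75 and 3.31 at day 15, 8.11 and 7.25 at day 22, 5.52, 5.17 and 5.54 in SCGB3A2- cells and 9.71, 9.22 and 9.86 in SCGB3A2+ cells. The late groups were separate from one another and from the early arrays. Relative to day 22, LAMP3 was 1.92 ± 0.27 higher in the SCGB3A2+ sort (adjusted p = 0.00117) and 2.27 (SE 0.27) lower in the SCGB3A2- sort (adjusted p = 3.87e-04), and the sorts differed 18.2-fold (4.18 ± 0.24, adjusted p = 7.83e-07). Of 12 leukocyte and dendritic cell markers, none was called between day 15 and day 22, when 8.95% of all probe sets were higher and 10.6% lower. In SCGB3A2+ against SCGB3A2- cells 2 were lower and none higher, where 12.8% of all probe sets were lower and 10.1% higher. Which cells gave the LAMP3 signal was not tested. Their mean level over the list lay between 2.29 and 2.60 on every array, and 2 or 3 of the 12 had a group mean above the dim limit. The leukocyte gene PTPRC had group means of 1.19 to 1.36, all dim. CD83 and CCR7, which like LAMP3 mark mature dendritic cells, were above the dim limit in every group. CD83 had its highest mean at day 0 (5.35) and its lowest in SCGB3A2+ cells (3.87, against 4.52 in SCGB3A2- cells, adjusted p = 0.0392). CCR7 had group means of 3.27 to 3.90, and the sorts differed by 0.30 ± 0.19 (adjusted p = 0.319).

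SLC34A2 takes up phosphate at the apical membrane of alveolar type 2 cells. It stood at 3.86 and 4.05 at day 0, 2.79 and 2.67 at day 15, 8.57 and 7.50 at day 22, 7.37, 6.67 and 6.84 in SCGB3A2- cells and 10.31, 9.07 and 9.84 in SCGB3A2+ cells. SCGB3A2- cells stayed 4.23 ± 0.36 above day 15 (adjusted p = 8.46e-06), and their difference from day 22 did not pass (-1.08 ± 0.36, adjusted p = 0.103), although the arrays did not overlap (20.7% of probe sets were lower without overlap). SCGB3A2+ cells were 1.70 ± 0.36 above day 22 (adjusted p = 0.00995). That call ended without day 22 C (1.17, adjusted p = 0.137) or with only the arrays compared in the fit (adjusted p = 0.0572). The sorts differed by 2.78 ± 0.32, or 6.87-fold (adjusted p = 9.98e-05).

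LPCAT1, the acyltransferase that remodels phosphatidylcholine into the saturated form of surfactant, is expressed in many tissues, and its pattern stood apart. Its values were 8.35 and 7.93 at day 0, 7.25 and 7.37 at day 15, 9.41 and 9.19 at day 22, 7.22, 7.06 and 6.88 in SCGB3A2- cells and 9.45, 9.18 and 9.16 in SCGB3A2+ cells. It was the gene of the set with a level in SCGB3A2- cells below that of day 0 (-1.08 ± 0.17, adjusted p = 3.17e-04, in a comparison in which 18.8% of probe sets were lower). Day 22 and SCGB3A2+ arrays overlapped (-0.04 ± 0.17, adjusted p = 0.926), and the sorts differed by 2.21 ± 0.15 (adjusted p = 2.47e-06), the smallest of the 9 gaps.

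From day 0 to day 15, when NKX2-1 (the lung and thyroid transcription factor that binds several surfactant promoters) increased from 2.97 to 6.78, no member rose (16.2% of probe sets did) and 2 fell (15.3% of probe sets). Those that fell were LPCAT1 (-0.83 ± 0.18, adjusted p = 0.00473) and SLC34A2 (-1.22 ± 0.40, adjusted p = 0.0351). The SLC34A2 call ended when any of the 4 arrays of these days was left out (adjusted p = 0.0735 without day 0 A, 0.147 without day 0 C, 0.102 without day 15 B and 0.135 without day 15 C), and with array weights (0.0952). ABCA3 was lower on both day 15 arrays than on both day 0 arrays, as were 31.4% of probe sets, by a difference that did not pass (-0.72 ± 0.29, adjusted p = 0.0805). Of the 7 measured genes whose upstream stretches were searched, these 3 had first listed start sites rich in CpG (28 to 38). This description was noticed after their values were seen. From day 15 to day 22, 8 of 9 members rose (8.95% of probe sets did), with a median difference of 3.57 against -0.01 over all probe sets, while NKX2-1 differed by 0.10 ± 0.25 (adjusted p = 0.849). After SFTPB, SLC34A2 rose most (5.31 ± 0.40, adjusted p = 4.02e-06), then SFTPA1 and LAMP3 (4.65 ± 0.30, adjusted p = 1.38e-06). SFTPC rose by 3.57 ± 0.44 (adjusted p = 1.69e-04), ABCA3 by 2.73 ± 0.29 (adjusted p = 5.41e-05) and LPCAT1 by 1.99 ± 0.18 (adjusted p = 2.04e-05).

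**Figure D2:**
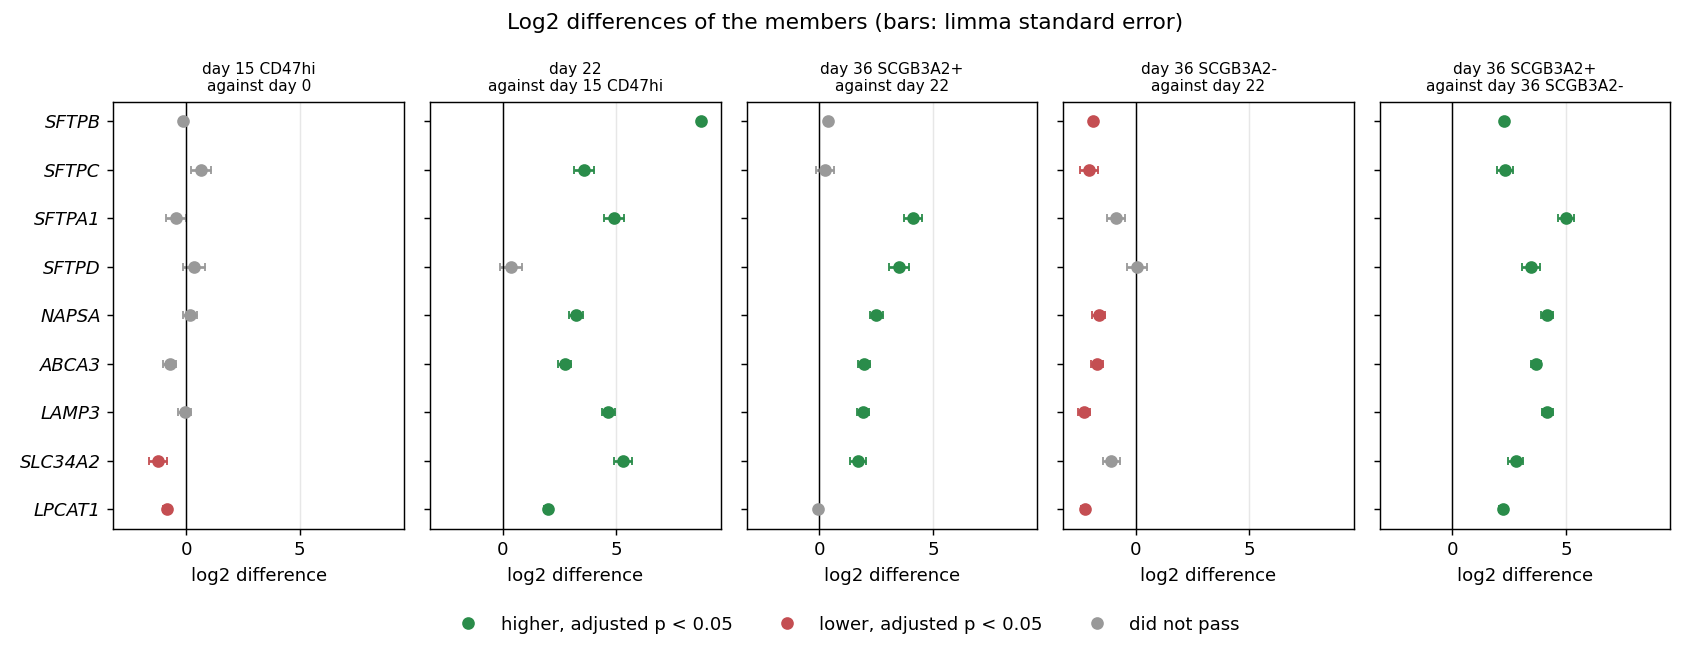
Log2 differences (horizontal axis) of the 9 genes (vertical axis) in 5 comparisons, as points with limma's standard error, in green where called higher, red where called lower and grey where the test was not passed. All 9 points are green between the day 36 sorts, 8 between day 22 and day 15, and none between day 15 and day 0.

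For most members the means of the day 36 sorts lay on opposite sides of that of day 22. Both sorts are set against the same 2 day 22 arrays, so the values are given side by side. In SCGB3A2+ cells 6 of 9 members were higher than at day 22 (6.75% of probe sets were) and none was lower (7.71% were), with a median difference of 1.92. In SCGB3A2- cells 6 of 9 were lower (4.15% of probe sets were) and none was higher (3.75% were), with a median of -1.69. The sorts themselves differed for 9 of 9, all higher in SCGB3A2+ cells (10.1% of probe sets were), and for all 9 no array of one sort overlapped the other (18.7% of probe sets were so in this direction). The median difference was 3.46, with a range of 2.21 to 5.002, against 0.02 over all probe sets. NKX2-1 differed by 3.50 ± 0.20 between the sorts (adjusted p = 7.30e-07).

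The arrays of day 22 were not alike for this set. All 9 members were higher on day 22 A than on day 22 C, 7 of them by 0.5 or more, with a median of 0.81. Of all probe sets, 50.9% were higher on A, 5.83% by 0.5 or more, with a median of 0.01. This gap ranged from 0.16 for SFTPB to 1.27 for SFTPA1. For the other calls against day 22 named above, leaving out either array did not end them.

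Profiles of the members were compared as the root mean square difference over the 5 group means, each gene centred on its own mean. NAPSA and LAMP3 were the most alike (0.50), followed by LAMP3 and SLC34A2 (0.63) and by ABCA3 and NAPSA (0.65). SFTPB and LPCAT1 were the least alike (3.62). SFTPD lay nearest to ABCA3 (0.78).

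**Figure D3:**
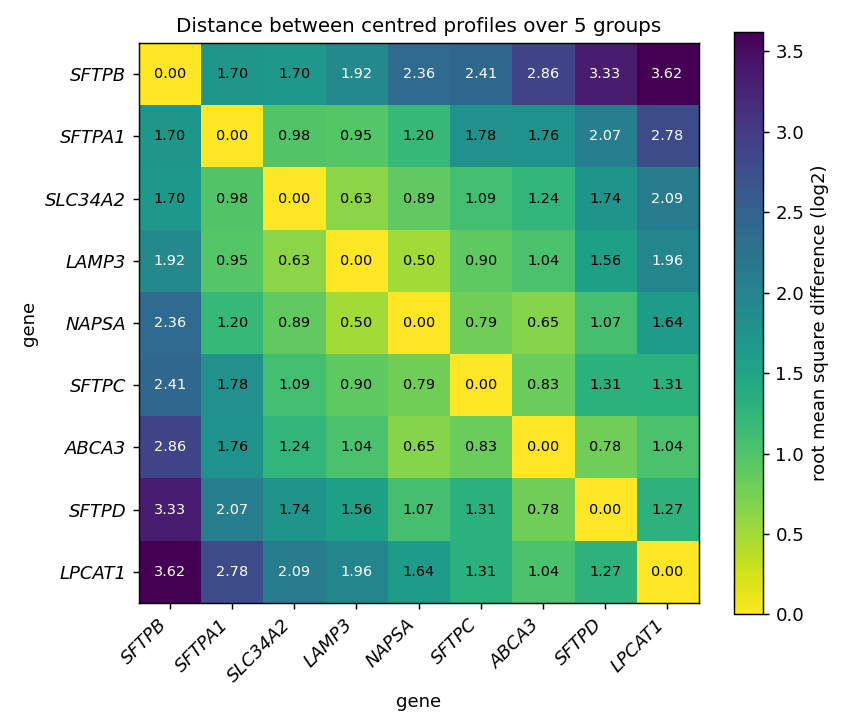
Root mean square difference (log2, colour and printed values) between the centred 5-group profiles of each pair of the 9 genes, which stand on both axes. NAPSA, LAMP3, SLC34A2, ABCA3 and SFTPC lie 0.50 to 1.24 from one another, and SFTPB and LPCAT1 lie farthest apart at 3.62.

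By the same measure over 11590 other named genes that passed the F-test, the profiles nearest to SFTPB were those of the plasma protein genes ALB (0.91), FGA (0.91) and FGG (0.95). ALB stood at 11.16 in SCGB3A2- and 10.98 in SCGB3A2+ cells, FGA at 9.15 and 9.87, and FGG at 9.20 and 11.57. ALB thus did not share the higher SCGB3A2+ level of SFTPB. Nearest to SFTPC were the transcriptional repressor gene BCL6 (0.31), SCEL (0.33) and LIMCH1 (0.33). SFTPA1 was nearest to SLPI (0.50), an antiprotease of airway secretions that went from 6.26 in SCGB3A2- to 10.41 in SCGB3A2+ cells, then to PGC (0.94) and the water channel AQP4 (0.998). SFTPD was nearest to PCAT18 (0.26), SLC10A1 (0.27) and ITGA8 (0.30), and LPCAT1 to the glutamate receptor gene GRIA3 (0.18), MIR32 (0.21) and CD55 (0.23), a complement inhibitor.

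The processing of surfactant proproteins and the traffic of lysosome-related organelles involve many widely expressed genes. Of 25 such genes 9 were higher and 2 lower in SCGB3A2+ than in SCGB3A2- cells, with a median of 0.10, against 10.1% and 12.8% of all probe sets. From day 15 to day 22, 9 rose and 4 fell, against 8.95% and 10.6% of all probe sets. These shares over all probe sets are the background for the lists that follow too. The secretory GTPase gene RAB27A (2.26 ± 0.21), SYT7 (2.55 ± 0.20), a calcium sensor of lysosome exocytosis, and MREG (0.999 ± 0.11) were higher in SCGB3A2+ cells. PGC, the gene of pepsinogen C, a gastric protease also made in alveolar type 2 cells, rose from 1.96 at day 15 to 8.06 at day 22 and was 2.67 ± 0.29 higher in SCGB3A2+ than in SCGB3A2- cells (adjusted p = 6.00e-05). RAB38, which shapes lamellar bodies in rats and mice, fell by 0.94 (SE 0.16) from day 15 to day 22, as did DTNBP1 by 0.83 (SE 0.15).

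Some genes of surfactant turnover and sensing changed in the direction of the members. ADGRF5, whose receptor holds surfactant pools in check in mice, rose from 2.28 (day 15) to 7.37 (day 22), and was 8.21 in SCGB3A2+ against 3.97 in SCGB3A2- cells (4.24 ± 0.16, adjusted p = 6.67e-08). SFTA2 went from 3.07 to 6.66 and was 3.20 ± 0.20 higher in SCGB3A2+ cells. The lipid flippase genes ATP8A1 and ATP11A were 4.01 ± 0.19 and 1.23 ± 0.17 higher in SCGB3A2+ than in SCGB3A2- cells. Of the 13 measured genes of this list, 6 rose and none fell to day 22. Between the sorts 5 were higher and 1 lower in SCGB3A2+ cells, with a median of 0.105 against 0.015 over all probe sets.

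Phospholipid and fatty acid synthesis genes, the supply of surfactant lipid, were higher in SCGB3A2+ than in SCGB3A2- cells for 10 of 23 and lower for 3, with a median of 0.38. The fatty acid synthase gene FASN was 1.56 ± 0.13 higher (adjusted p = 8.61e-06), the sterol regulators SREBF1 and INSIG1 0.80 ± 0.11 and 1.01 ± 0.13 higher, while GPAM, an acyltransferase of glycerolipid synthesis, was lower (-0.91 ± 0.14). To day 22, 8 of these genes rose and 3 fell. FASN (1.27 ± 0.16) and the elongase gene ELOVL1 (1.25 ± 0.16) were among those that rose, and GPAM (-1.51 ± 0.18) among those that fell.

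**Figure D4:**
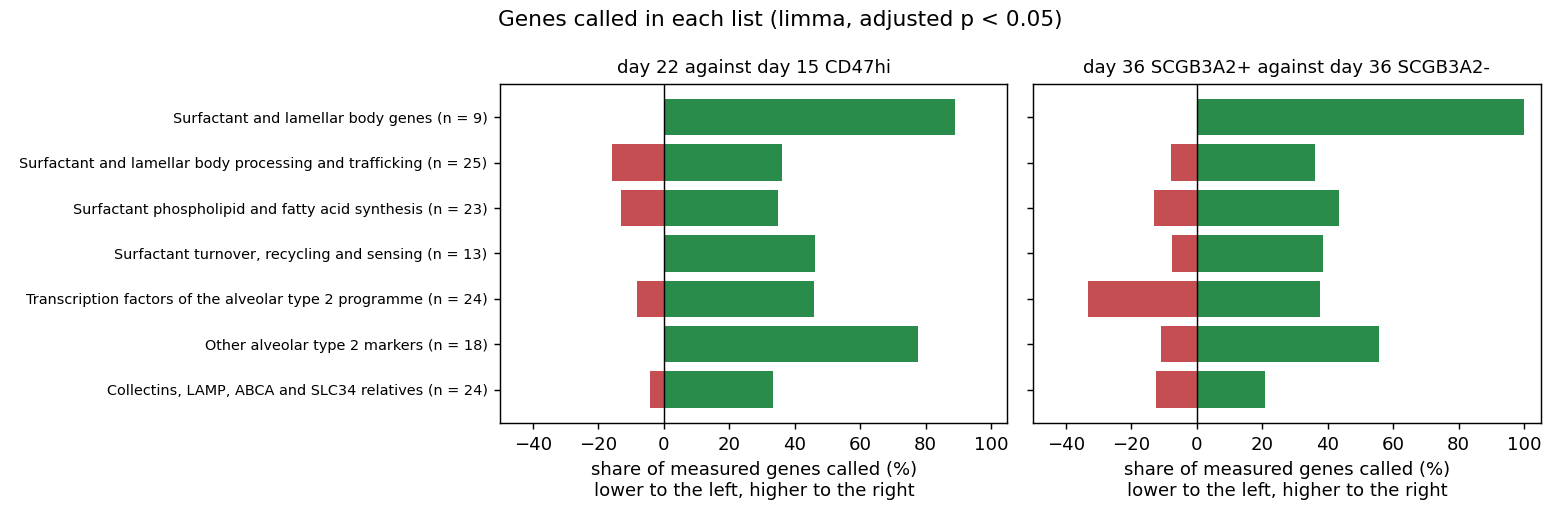
Share of measured genes (horizontal axis, %) called higher (green, to the right) or lower (red, to the left) for the 9 surfactant and lamellar body genes and 6 related lists (vertical axis, n measured), at day 22 against day 15 and between the day 36 sorts. The 9 genes reach 8 and 9 called higher, while the transcription factor list has 9 higher and 8 lower between the sorts.

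Of 24 transcription factors linked to alveolar type 2 cells, 9 were higher and 8 lower in SCGB3A2+ than in SCGB3A2- cells, where the shares over all probe sets were 10.1% higher and 12.8% lower. CEBPD, a leucine zipper factor induced by glucocorticoids in lung epithelium, was 2.60 ± 0.16 higher (adjusted p = 1.35e-06) and had risen by 2.45 ± 0.20 at day 22. SOX9 and ETV4, factors of distal lung tips, were lower in SCGB3A2+ cells (-2.16 ± 0.19 and -2.46 ± 0.23). To day 22, 11 of the 24 factors rose and 2 fell, with a median of 0.355. ETV4 (3.32 ± 0.28), ETV5 (2.83 ± 0.22) and KLF5 (2.20 ± 0.22) were among those that rose. Among 18 further alveolar type 2 markers, 14 rose and none fell to day 22, and 10 were higher and 2 lower between the sorts, among them ROS1 (5.14 ± 0.27), LRRK2 (4.70 ± 0.31), CXCL17 (4.32 ± 0.19) and HOPX (3.61 ± 0.17). HOPX is also on the list of alveolar type 1 markers given below and is counted in both. WIF1 (2.93 ± 0.24) and DPP4 (5.54 ± 0.42) rose to day 22.

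Markers of other lineages also changed between the groups, not always in the direction of the members, and their part in the results was not tested. Liver markers rose for 11 of 12 between day 15 and day 22, when their mean level over the list went from 3.99 to 5.06 up to 9.22 to 9.72, and gut and stomach markers rose for 9 of 12 (3.17 to 3.28 up to 5.44 to 6.13). Between the sorts 6 of 12 liver markers were lower and 1 higher in SCGB3A2+ cells (8.30 to 8.57, against 8.86 to 9.62 in SCGB3A2-), and 3 of 12 gut markers were lower and none higher. Alveolar type 1 markers were higher in SCGB3A2+ cells for 9 of 12 and lower for 1 (6.34 to 6.45 against 4.63 to 4.77). Airway secretory markers were higher for 4 of 11 (4.85 to 5.07 against 3.20 to 3.31). The sort marker SCGB3A2 is itself on that list and among the 4, and it raises the list mean of the SCGB3A2+ arrays. Ciliated cell markers were higher for 7 of 12 (3.15 to 4.18 against 2.64 to 2.76), and none of either list was lower. Mesenchyme and endothelium markers were higher for 2 of 12 (2.74 to 2.97 against 2.50 to 2.69).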

How the data were processed

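The authors deposited log2 values of 23786 probe sets for 12 arrays. They were made by RMA (background correction, normalization between arrays and summary of probes) with affy 1.36.1 in R 2.15.1, per the submitters' processing notes. For the annotation, the release is not given in the sources used here. This method hides changes in total RNA per cell and compresses differences near the floor, so fold changes of dim genes are understated. Values ran from 0.265 to 12.3, array medians from 3.66 to 3.75, and no column of values was left unused. The number of arrays limits the precision. Platform annotation gave 1 symbol for 22458 probe sets and none for 1328, and only the former were named. LAMP3 and SFTPC were not searched for motifs, and no upstream sequence is printed for them. The statements on motifs and CpG thus do not cover these genes.

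All 12 arrays entered 1 fit in limma 3.58.1 under R 4.3.3 (lmFit and eBayes, 1 mean per group, 7 residual and 4.43 prior degrees of freedom), with two-sided tests of all 10 pairs of groups. The fit was tested on simulated data. Genes and lists (14 lists, 221 of 228 entries measured) were chosen with earlier results of these data known. All members were named whatever their values. Of each pathway list, up to 4 genes with the smallest adjusted p were named in the comparison of the sorts and up to 4 in that of day 22 with day 15. NKX2-1 and SCGB3A2 were also fixed as checks of the labels, with CD47, which was 1.90 ± 0.19 higher at day 15 than at day 0. Alternatives were other variance models, array weights, a filter on dim probe sets, other scalings, the replicate letter as a block and each array left out. By letter, deviations of the day 36 sorts from their group means correlated across probe sets at 0.104 (A), 0.124 (B) and 0.111 (C), and the letters were taken to pair these arrays. The main fit did not use this pairing. Day 22 and SCGB3A2- arrays of the same letter correlated at 0.126 (A) and 0.114 (C), and day 22 and SCGB3A2+ arrays at 0.0302 (A) and 0.0584 (C). Whether letters pair the remaining groups was not settled.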

Additional observations from a re-analysis of the deposited data

How the results depend on the processing

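Of 855 values of the 9 genes (45 differences under 19 alternatives), 841 kept their side of the threshold, 10 lost their call and 4 gained one. No difference called in the main fit or in the alternative changed direction. Some uncalled differences did, such as that of SFTPD from day 15 to day 22 (0.35 in the main fit, -0.014 with the replicate block). All 9 calls between the day 36 sorts and all 8 from day 15 to day 22 held under each of the 19, the replicate block included. With the replicate block, in groups where pairing was not established, 1 member differed between day 15 and day 0 in place of 2 (SLC34A2 at -0.81, adjusted p = 0.0853), and it changed no other call of a member. That count was also 1 with array weights, and 1 to 3 with an array left out (3 without SCGB3A2+ B, when ABCA3 passed at adjusted p = 0.0374). ABCA3 also passed there with only the arrays compared (0.0433). Over all probe sets, 4643 differed between day 22 and day 15 (2859 to 5275 with an array left out), 3439 between SCGB3A2+ and day 22 (1012 to 4119, and 1869 with only the arrays compared), and 1878 between SCGB3A2- and day 22 (935 to 2265). The lowest count came without day 15 C in the first of these and without day 22 C in the others. An average of SFTPA1 and SFTPA2 was planned and not run, since SFTPA2 was not analysed here. Signal over background was not available for single probes, so low levels cannot be called absent. The causes of these changes were not tested.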

Other observations

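Of 24 measured collectin, LAMP, ABCA, SLC34 and acyltransferase relatives, 8 rose and 1 fell from day 15 to day 22, and 5 were higher and 3 lower in SCGB3A2+ than in SCGB3A2- cells, with a median of 0.04. Over all probe sets the shares were 8.95% higher and 10.6% lower in the first comparison, and 10.1% higher and 12.8% lower between the sorts. LPCAT2, which makes platelet-activating factor in inflammatory cells, was 6.74 in SCGB3A2+ and 3.75 in SCGB3A2- cells (2.98 ± 0.24, limma adjusted p = 6.85e-06). ABCA5, a transporter of lysosomal membranes, was 1.68 ± 0.17 higher in SCGB3A2+ cells and had risen by 1.32 ± 0.21 at day 22, and ABCA12, a lipid transporter of skin lamellar granules, rose by 1.79 ± 0.34 to day 22. LAMP5 went the other way between the sorts, at 2.13 in SCGB3A2+ and 4.01 in SCGB3A2- cells. Among aspartic proteases related to NAPSA, the lysosomal CTSD was 1.16 ± 0.15 higher in SCGB3A2+ cells, and CTSE, a protease of gastric epithelium, rose from 3.39 at day 15 to 9.08 at day 22. The lysosomal gene CD68, best known from macrophages, rose by 3.02 ± 0.36 over the same days. None of the 12 leukocyte and dendritic cell markers was called there. Which cells gave the CD68 signal was not tested.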
